A study of Mus musculus with 8 samples.

Results

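The genes described here are those of the unfolded protein response and the integrated stress response, followed across the mouse mammary carcinoma line D2A1 and its metastatic sublines D2A1-m1 and D2A1-m2. They were chosen by name: 36 genes were listed, 35 had at least 1 probe on the Illumina MouseWG-6 v2.0 BeadChip, and 32 had a probe that was detected (detection p of 0.01 or lower) on at least 1 of the 8 arrays. These 32 stood among 9017 genes tested in all. By role, 11 of 14 listed folding factors of the endoplasmic reticulum (ER), 4 of 4 factors of ER-associated degradation, 7 of 8 sensors and transcription factors, and 10 of 10 targets of the transcription factor Atf4 were measured. Dnajb11 had no named probe, and Canx, Manf and Eif2ak3 (PERK, the ER kinase of the integrated stress response) had probes that were detected on no array.

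D2A1-m1 (2 cultures) and D2A1-m2 (3 cultures) were compared with parental D2A1 (3 cultures), a line that came from a tumour in a BALB/c mouse. Each subline was raised separately, by growth in the mammary fat pad followed by repeated tail vein injection, with tumour cells taken back from the lungs each time. All RNA came from cultured cells with no further treatment in the labels, and was hybridised in 2 batches, with batch 1 holding D2A1-m1 replicate 1, D2A1-m2 replicate 1 and D2A1 replicates 1 and 2. Each subline is a single derived line, so a difference between lines cannot be told apart from a difference between the cell populations that happened to be recovered.

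The unfolded protein response is the programme by which cells adjust the folding capacity of the ER: the sensors Ern1 (IRE1), Atf6 and PERK are held inactive by the chaperone Hspa5 (BiP) and act through Xbp1, cleaved Atf6 and Atf4 to raise chaperones and degradation factors. The integrated stress response overlaps it through PERK but is also set off by amino acid shortage, haem shortage or viral RNA, all of which phosphorylate eIF2, slow translation and favour the making of Atf4 protein. Atf4 and its partner Ddit3 (CHOP) then switch on genes for amino acid synthesis and uptake, redox balance and cell death.

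The factors of these branches bind short sequences, which sorted these genes only in part. RefSeq start site windows (GRCm38.p6, 250 bases before to 50 after a start) were held for 33 of the 36 genes, and were searched on both strands for 4 motifs. The ER stress element, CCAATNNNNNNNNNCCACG, which Atf6 and Xbp1 are known to use, was present in 8 of the 33 genes, against 0.137% of all 27025 genes with a window. All but Syvn1 of these 8 were folding factors. The C/EBP-ATF composite element, searched as TGATGNAA, which Atf4 with a C/EBP partner such as Ddit3 is known to bind, was present in 7 of the 33, against 4.51% of all genes. Of the 10 Atf4 targets 4 held it, and so did Herpud1, Atf3 and Nupr1 of other lists. No gene held both the ER stress element and the composite element. None held the Xbp1 element TGACGTGG (0.714% of all genes), and Ppp1r15a alone held the cyclic AMP element TGACGTCA (2.03%). A match describes these letters only, and no match says nothing of sites outside the window.

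The composite element is shown in capitals for 5 of the 7 genes. Of these 5, Chac1, Asns, Nupr1 and Herpud1 were at least 1.5-fold higher on D2A1 replicate 2 than on D2A1 replicate 1, described below. Each run is on the strand of the gene, 5′ to 3′, and ends at or before the start site.
Chac1 (chr2:119351024-119351081, plus strand): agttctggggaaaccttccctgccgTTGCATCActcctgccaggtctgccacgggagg
Asns (chr6:7693210-7693257, minus strand): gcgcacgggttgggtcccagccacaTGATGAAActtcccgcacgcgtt
Nupr1 (chr7:126625548-126625605, minus strand): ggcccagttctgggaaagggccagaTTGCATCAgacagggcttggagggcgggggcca
Herpud1 (chr8:94386292-94386349, plus strand): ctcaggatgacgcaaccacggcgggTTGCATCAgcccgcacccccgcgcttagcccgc
Atf3 (chr1:191183411-191183468, minus strand): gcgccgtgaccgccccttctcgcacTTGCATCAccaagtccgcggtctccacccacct
In Trib3 the element TTACATCA lay inside the transcript, ending 22 bases after the start, and in Vldlr it lay before an alternative start that is downstream of the gene's annotated start, so neither is shown. The letters TTGCATCA recurred in Chac1, Vldlr, Nupr1, Herpud1 and Atf3, whereas Asns carried TGATGAAA.

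The ER stress element is shown in capitals for 3 folding factors, which went the other way or stayed level between the same arrays.
Hspa5 (chr2:34772000-34772068, plus strand): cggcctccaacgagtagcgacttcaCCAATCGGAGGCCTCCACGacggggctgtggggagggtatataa
Creld2 (chr15:88819495-88819563, plus strand): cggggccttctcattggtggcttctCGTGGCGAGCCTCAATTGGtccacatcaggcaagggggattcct
Hsp90b1 (chr10:86705508-86705681, minus strand): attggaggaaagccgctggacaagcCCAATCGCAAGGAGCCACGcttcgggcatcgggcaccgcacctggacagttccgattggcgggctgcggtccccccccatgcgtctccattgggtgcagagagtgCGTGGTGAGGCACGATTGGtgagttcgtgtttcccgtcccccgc
Hsp90b1 (the ER paralogue of Hsp90) carried the element at 2 positions, and Creld2 carried it on the opposite strand.

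The arrays were similar in overall quality, with 13618 to 14625 probes detected in D2A1-m1, 13768 to 14942 in D2A1-m2 and 13419 to 14387 in D2A1. Array values are given as normalised log2 intensities, and the number of arrays limits their precision. Of 9 carcinoma and mammary epithelium markers, Krt8, Krt18, Cldn7 and Vim were detected in every line, while Krt14, Epcam, Cdh1, Cldn3 and Cldn4 were detected in none, and log2 intensities of Krt8 exceeded those of D2A1 by 3.03 in D2A1-m1 and by 3.26 in D2A1-m2. Summed normalised intensity over 8 leukocyte markers was 558 to 885 in D2A1-m1, 473 to 609 in D2A1-m2, against 265 to 436 in D2A1. Cd14 was detected in every line, Coro1a in both sublines and Laptm5 and Lyz1 in D2A1-m2 alone, and Ptprc, Cd74, Tyrobp and Fcer1g were detected on no array. The sum over 6 fibroblast markers was 217 to 224 in D2A1-m1, 180 to 188 in D2A1-m2, against 159 to 179 in D2A1, with Pdgfra detected in every line and Col1a1 in D2A1-m2. The part of either in the results below was not tested. The 6 endothelial markers were detected on no array.

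**Figure D1:**
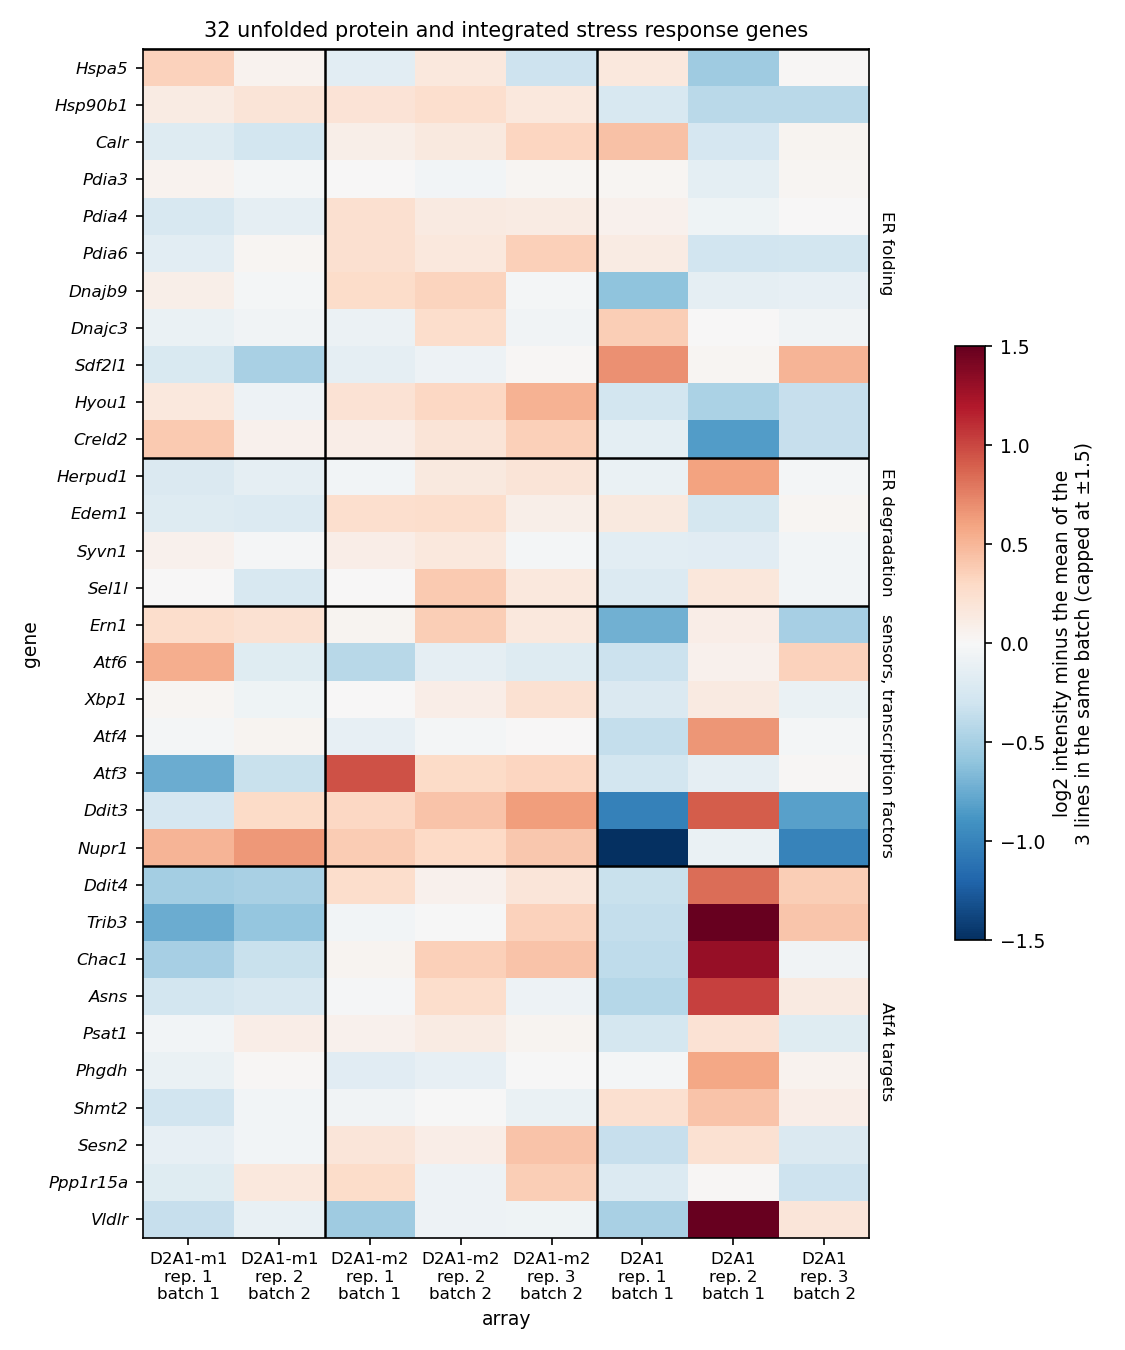
Each row is a measured gene and each column an array; colour gives the log2 intensity minus the mean of the 3 lines in the same batch, capped at ±1.5. D2A1 replicate 2 is red across the Atf4 targets (median 0.71 above that mean) and pale to blue across the folding factors (median 0.25 below), whereas Nupr1 is red on every subline array.

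A parental array stood apart for these genes, which was seen only after the values were examined. D2A1 replicate 2 had the highest level of all 8 arrays for Atf4, Ddit3, Trib3, Chac1, Asns, Vldlr, Phgdh, Shmt2 and Herpud1. Relative to the mean of the 3 lines in its batch, the median of the 10 Atf4 targets was 0.71 (range 0.02 to 2.24) on that array and −0.34 on D2A1 replicate 1, beside −0.011 and −0.0045 for all genes. The 11 folding factors had a median of −0.25 on D2A1 replicate 2, with the highest of them at 0.03, and 0.07 on D2A1 replicate 1. The Atf4 arm and the chaperones of this culture thus lay on opposite sides of its batch.

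The difference was large against that between the other pair of replicates that share a line and a batch. Between D2A1 replicate 2 and D2A1 replicate 1, 6 of 10 Atf4 targets and 4 of 7 sensors and factors were at least 1.5-fold higher in replicate 2, where 5.27% of all genes were, and none of these 17 was at least 1.5-fold lower. Of the 11 folding factors 4 were at least 1.5-fold lower, where 4.94% of all genes were, and none was higher, while Herpud1 (0.70 higher) was the only degradation factor of 4 to pass. Between D2A1-m2 replicate 3 and D2A1-m2 replicate 2, none of the 32 genes passed 1.5-fold in either direction, where 0.621% of all genes were higher and 0.965% lower. These are differences between single arrays, with no test. Vldlr, among the 6 Atf4 targets, was kept only through its detection on D2A1 replicate 2, so it could only be higher there.

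The genes with the greatest difference were classical targets of Atf4 and Ddit3. Vldlr, a lipoprotein receptor, was at least 3.16-fold higher in D2A1 replicate 2 than in D2A1 replicate 1, a bound because it was not above background on replicate 1. Trib3, a pseudokinase that restrains Atf4, was 2.28 higher on the log2 scale and ranked 4 of 9017 genes by measured value. Ddit3 was 1.92 higher (rank 10), and Chac1, which degrades glutathione, was 1.68 higher (rank 12). Nupr1, a small stress-induced chromatin protein, was 1.57 higher (rank 15), Asns, the asparagine synthetase, 1.45 higher (rank 27) and Ddit4, an inhibitor of mTORC1, 1.18 higher (rank 48). For Nupr1, D2A1 replicate 1 was the lowest of all 8 arrays (8.39), and D2A1 replicate 2 (9.96) lay below every subline array. Atf4 itself was 1.02 higher (rank 76). All 3 detected probes of Trib3 (2.17 to 2.52) and of Asns (1.15 to 1.45), and both probes of Ddit3 (1.92 and 2.13) and of Atf4 (0.77 and 1.02), gave the same direction.

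The serine pathway and the remaining targets differed less. Phgdh, which opens serine synthesis, was 0.61 higher in D2A1 replicate 2, the serine transaminase Psat1 0.49 higher, the eIF2 phosphatase subunit Ppp1r15a 0.22 higher and the mitochondrial hydroxymethyltransferase Shmt2 0.19 higher, while the stress sensor Sesn2 was detected on neither array. Among the folding factors, Calr, Hspa5, Creld2 and Sdf2l1 were each lower in D2A1 replicate 2 by 0.65 to 0.69, and only Dnajb9 was higher, by 0.46.

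Grouped by the motifs above, 6 of the 7 genes with the composite element were at least 1.5-fold higher in D2A1 replicate 2 than in D2A1 replicate 1 (median 1.57 over the 7), and Atf3 was detected on neither array. The 7 measured genes with the ER stress element were all lower (median −0.41), 3 of them by at least 1.5-fold. Of the 16 genes with a window and neither motif, 5 were at least 1.5-fold higher and 1 was lower (median 0.42, highest 1.92). Among all genes, 5.27% were at least 1.5-fold higher and 4.94% lower. These are counts over 2 arrays and were not tested, and D2A1 replicate 2 was picked for its values of these same genes. Among the 6 with the composite element, Vldlr was kept only through its detection on D2A1 replicate 2, so its direction was fixed beforehand. For Nupr1, D2A1 replicate 1 was the lowest of all 8 arrays.

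Some genes outside the list that are known targets of Atf4 were also higher on this array than on D2A1 replicate 1, while other genes of the same lists were level or lower. Of 11 amino acid synthesis and one-carbon genes 4 were at least 1.5-fold higher in D2A1 replicate 2, where 5.27% of all genes were, among them Aldh1l2 (3.03 higher), Cth (2.18) and Gpt2 (1.56). In that list 7 of 11 differences were positive (median 0.23), and Shmt1 was 0.41 lower. Of 19 aminoacyl-tRNA synthetases, the enzymes that charge transfer RNAs, 6 were at least 1.5-fold higher, led by Sars (1.47) and Nars (0.94), against the same share of all genes. Their median was 0.30, with 16 of 19 positive, and Gars was 0.32 lower. The amino acid transporters had a median of 0.31, with 5 of 7 positive. Of 7 amino acid transporters Slc6a9 and Slc1a4 were 1.51 and 1.42 higher, Slc7a11 was at least 1.82-fold higher (not above background on D2A1 replicate 1), and the factors Atf5 and Cebpg, both linked to Atf4, were 1.32 and 0.91 higher. None of 18 other ER folding genes and none of 22 ER translocation genes passed 1.5-fold in either direction, and their medians were 0.09 and 0.01. By measured value, 4 of 13 other stress-induced genes were at least 1.5-fold higher. No cytosolic heat shock gene of 12 was higher, and 1 was at least 1.5-fold lower, where 4.94% of all genes were. The results below that turn on D2A1 are given with and without this array, the plot of changes shows both for all 32 genes, and what set it apart was not tested.

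**Figure D2:**
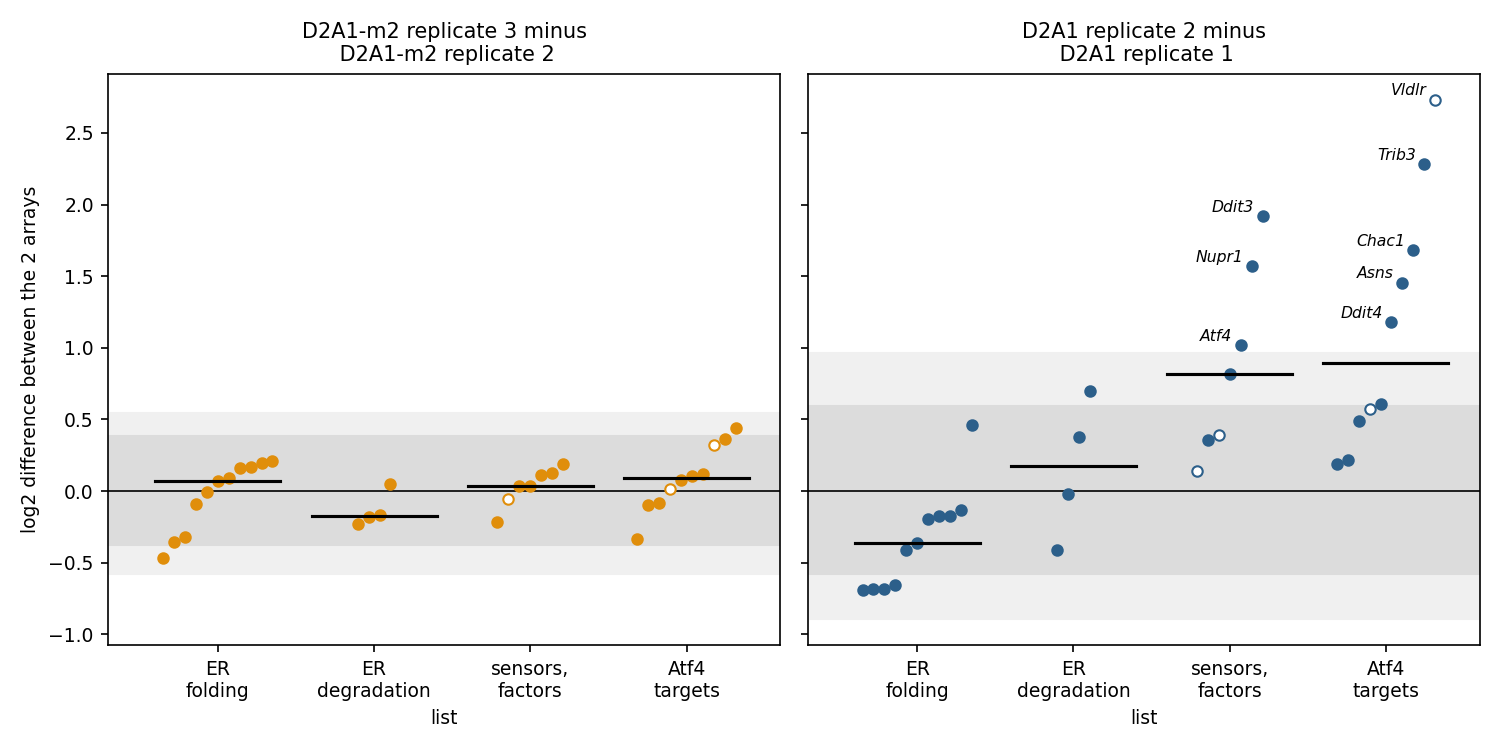
Each point is a gene, placed by its measured log2 difference between 2 replicate arrays of the same line and batch, for D2A1-m2 (left) and D2A1 (right); open points were not detected on at least 1 of the 2 arrays, lines are list medians, and the darker and lighter bands hold the middle of all genes from the 5th to the 95th and from the 1st to the 99th percentile. In D2A1 the Atf4 targets detected on both arrays reach 2.28, the whole list has a median of 0.89 and the folding factors lie at a median of −0.36, whereas the D2A1-m2 pair keeps every gene within 1.5-fold.

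These genes had a wide spread in the fit over all 8 arrays, which includes that array. After line and batch were fitted, the residual SD had a median of 0.33 for the Atf4 targets, 0.36 for the sensors and factors, 0.22 for the folding factors and 0.16 for all 9017 genes. Vldlr, Trib3, Ddit3, Chac1, Nupr1 and Asns lay above the 99th percentile of all genes. Batch also moved these genes: Ddit3 was lower by 1.19, Asns by 0.94 and Atf4 by 0.87 on the log2 scale in batch 2 than in batch 1, and Calr was 1.13 higher.

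Against parental D2A1, few of the genes changed in either subline, and the counts were close to or under those of all genes. A gene was called at an adjusted p under 0.05 (limma with Benjamini-Hochberg adjustment over 9017 genes) and a change of at least 1.5-fold. In D2A1-m1, 2 of 32 genes rose (Nupr1 and Creld2), where 7.72% of all genes did, and 1 fell (Sdf2l1), where 6.84% did. In D2A1-m2, 4 of 32 rose (Nupr1, Hyou1, Atf3 and Creld2), where 8.87% of all genes did, and none fell, where 7.34% did. At an unadjusted p under 0.05, 9 of 32 passed in D2A1-m1 and 9 of 32 in D2A1-m2, against 36.6% and 40.7% of all genes. Both comparisons use the same D2A1 arrays.

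Without D2A1 replicate 2, the calls changed in part. That array was picked for its values of these same genes, so p-values without it are descriptive and give no independent support. In D2A1-m1, 3 of 32 were higher (Nupr1, Ddit3 and Ern1), against 8.74% of all genes, and 2 were lower (Sdf2l1 and Trib3), against 7.62%. In D2A1-m2, 4 were higher (Nupr1, Ddit3, Ern1 and Hyou1), against 9.93% of all genes, and 1 was lower (Sdf2l1), against 8.18%. Nupr1 in both sublines, Hyou1 in D2A1-m2 and Sdf2l1 in D2A1-m1 were called with and without the array.

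Among the folding factors, Hspa5, the chaperone most often read as a marker of ER stress, did not pass the test in either subline, while its partners Hyou1 and Sdf2l1 and the ER protein Creld2 each passed in at least 1. Over the 11 measured, 1 rose and 1 fell in D2A1-m1, where 7.72% and 6.84% of all genes did (median change 0.09, all genes 0.0054), and 2 rose in D2A1-m2, where 8.87% of all genes did (median 0.17, all genes −0.0035). Hspa5 (BiP) had log2 intensities of 7.43 and 7.00 in D2A1-m1, 6.94, 7.10 and 6.63 in D2A1-m2, against 7.24, 6.56 and 6.96 in D2A1. The 3 lines overlapped, with changes of 0.32 ± 0.23 (SE) in D2A1-m1 (adjusted p = 0.34) and 0.01 ± 0.21 in D2A1-m2 (adjusted p = 0.972; limma), and of 0.12 and −0.17 without D2A1 replicate 2.

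Hsp90b1 was steady within each line and higher in both sublines, but by less than 1.5-fold. Its log2 intensities were 12.14 and 12.37 in D2A1-m1, 12.21, 12.43 and 12.34 in D2A1-m2, against 11.78, 11.60 and 11.77 in D2A1, so that every subline array lay above every D2A1 array. The changes were 0.51 ± 0.12 in D2A1-m1 (1.42-fold, adjusted p = 0.0179) and 0.56 ± 0.11 in D2A1-m2 (1.47-fold, adjusted p = 0.00675; limma), and 0.48 and 0.53 without D2A1 replicate 2.

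Creld2, an ER-resident protein induced by ER stress, was higher in both sublines. Its log2 intensities were 10.05 and 9.76 in D2A1-m1, 9.76, 9.89 and 10.05 in D2A1-m2, against 9.51, 8.82 and 9.36 in D2A1. No subline array overlapped D2A1, and D2A1 replicate 2 was the lowest. The changes were 0.66 ± 0.21 in D2A1-m1 (adjusted p = 0.0485) and 0.65 ± 0.19 in D2A1-m2 (adjusted p = 0.0318; limma), and another probe gave 0.69 and 0.63. Without D2A1 replicate 2 they were 0.47 and 0.48, under 1.5-fold, so both calls were lost.

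Hyou1, the nucleotide exchange factor of BiP, rose in D2A1-m2. It had log2 intensities of 6.14 and 6.52 in D2A1-m1, 6.20, 6.91 and 7.11 in D2A1-m2, against 5.70, 5.51 and 6.26 in D2A1. The lines overlapped over both batches but not within either, where D2A1-m2 was higher by 0.60 in batch 1 and 0.75 in batch 2. The change was 0.71 ± 0.13 in D2A1-m2 (1.63-fold, adjusted p = 0.00494), and 0.66 without D2A1 replicate 2 (adjusted p = 0.00629; limma). In D2A1-m1 it was 0.40 ± 0.14 (adjusted p = 0.0755; limma). D2A1 replicates 1 and 2 lay close to the lowest detected signal of their arrays (5.39 and 5.36). Over the processing alternatives described at the end, the change in D2A1-m2 ranged from 0.25 to 0.92. The call was lost in some of them, among these when background was left uncorrected.

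Sdf2l1, which works with BiP on misfolded proteins, was the only folding factor that fell. Log2 intensities of Sdf2l1 were 8.07 and 7.86 in D2A1-m1, 8.17, 8.28 and 8.37 in D2A1-m2, against 8.99, 8.34 and 8.86 in D2A1. D2A1-m1 lay below every D2A1 array, and D2A1 replicate 2 lay inside the range of D2A1-m2. The changes were −0.77 ± 0.19 in D2A1-m1 (1.71-fold lower, adjusted p = 0.0218) and −0.48 ± 0.18 in D2A1-m2 (adjusted p = 0.0748; limma). Without D2A1 replicate 2 they were −0.96 and −0.65, and both passed.

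The other 6 folding factors did not pass the test in either subline. The lectin chaperone Calr, the disulfide isomerases Pdia3, Pdia4 and Pdia6, and the BiP co-chaperones Dnajb9 and Dnajc3 had changes of −0.32 to 0.31 in D2A1-m1 and −0.07 to 0.48 in D2A1-m2. Dnajb9 was measured by 2 probes, which gave 0.48 (adjusted p = 0.0637) and 0.70 (adjusted p = 0.0115 over all detected probes; limma) in D2A1-m2. Of the 4 degradation factors, the ubiquitin ligase Syvn1, its partner Sel1l, the scaffold Herpud1 and the mannosidase-like Edem1, none passed. Changes from D2A1 spanned −0.34 to 0.14 for D2A1-m1, and −0.06 to 0.23 for D2A1-m2. Without D2A1 replicate 2 they spanned −0.29 to 0.12 and 0.12 to 0.29, again with no call. Another Sel1l probe, detected on all 8 arrays, gave −0.23 and 0.41, uncalled. Without D2A1 replicate 2 this probe was called in D2A1-m2, at 0.61 (adjusted p = 0.00374 over all detected probes; limma). It was then also called between the sublines, D2A1-m1 differing by −0.62 (adjusted p = 0.0123; limma). Both p-values are descriptive.

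**Figure D3:**
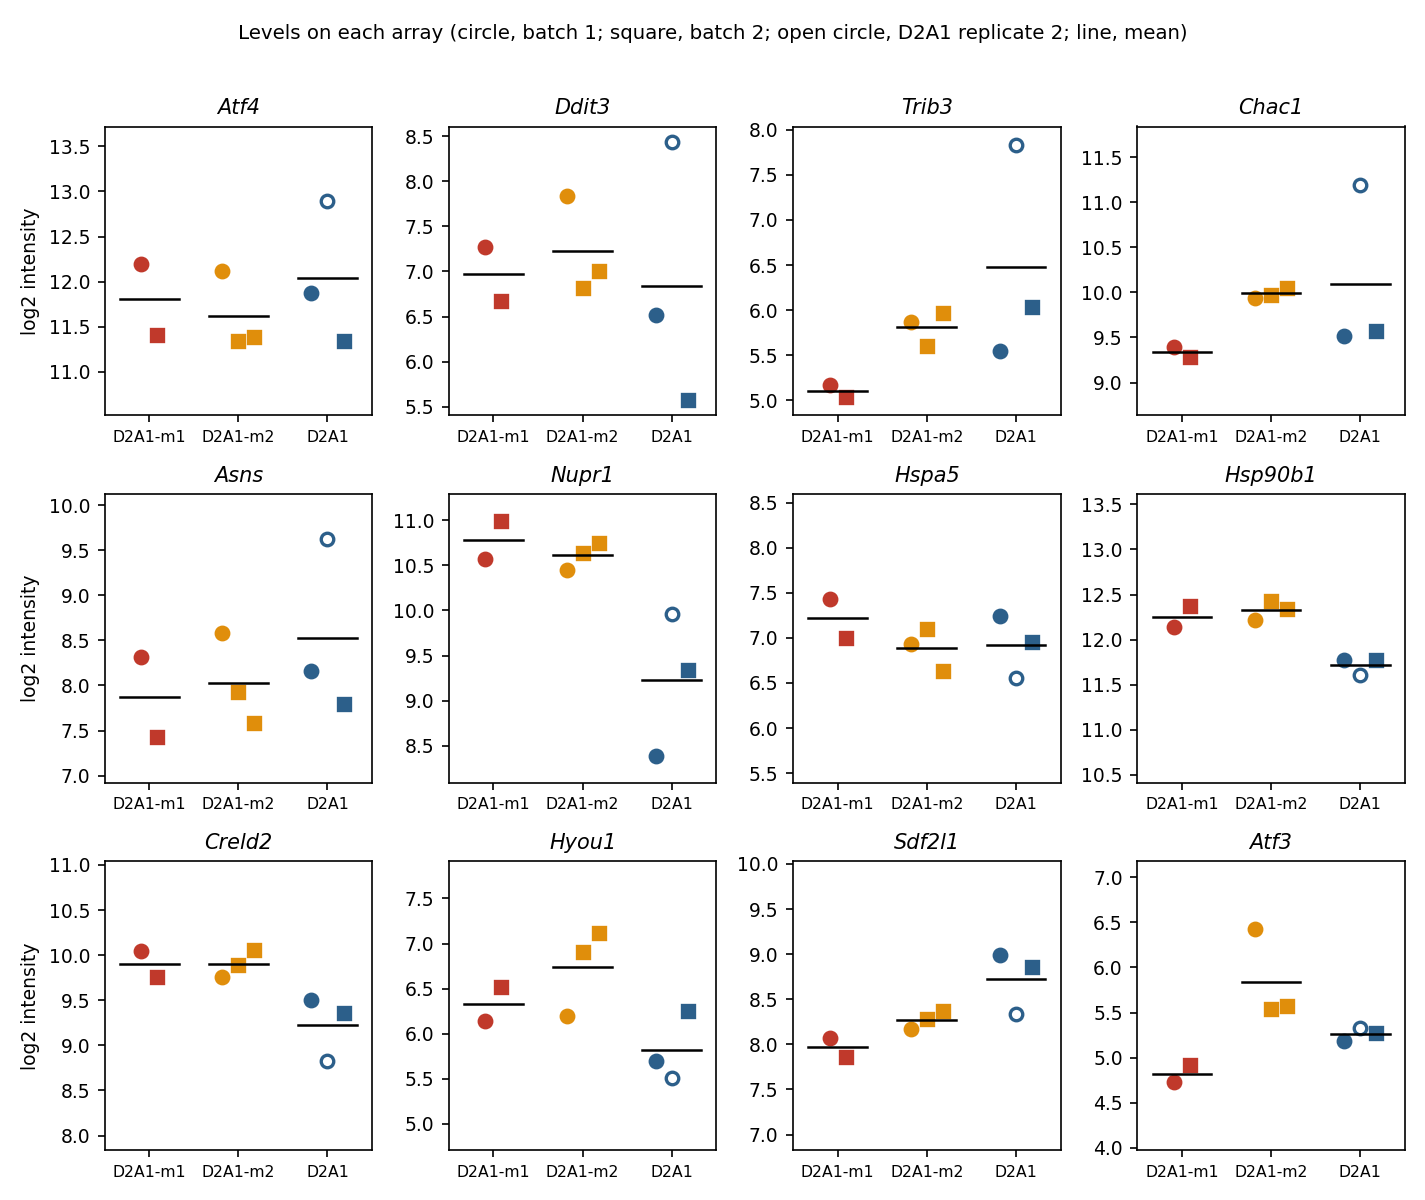
Log2 intensity of 12 genes on each array, by line, with the line mean; circles are batch 1, squares batch 2, and the open circle is D2A1 replicate 2. That array is the highest of all for Atf4, Ddit3, Trib3, Chac1 and Asns, and the lowest of all for Hspa5, Hsp90b1, Creld2 and Hyou1.

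Of the sensors and transcription factors, Nupr1 rose in both sublines. Its log2 intensities were 10.57 and 11.00 in D2A1-m1, 10.44, 10.64 and 10.75 in D2A1-m2, against 8.39, 9.96 and 9.34 in D2A1. Every subline array lay above every D2A1 array, although D2A1 itself ranged over 1.57. The changes were 1.51 ± 0.36 in D2A1-m1 (2.85-fold, adjusted p = 0.0169) and 1.297 ± 0.33 in D2A1-m2 (2.46-fold, adjusted p = 0.0184; limma). Within batch 1 they were 1.40 and 1.27, and within batch 2 they were 1.66 and 1.36. Without D2A1 replicate 2 they were 1.92 and 1.67.

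Xbp1 and Atf4, the factors through which the pathways act, were abundant, and neither passed the test. Xbp1 had log2 intensities of 11.03 and 10.86 in D2A1-m1, 11.01, 11.02 and 11.14 in D2A1-m2, against 10.78, 11.14 and 10.82 in D2A1, with changes of 0.04 ± 0.15 (adjusted p = 0.853) and 0.17 ± 0.13 (adjusted p = 0.39; limma), and of 0.14 and 0.26 without D2A1 replicate 2. The splicing of Xbp1 by Ern1 was not analysed here. Atf4 had 12.20 and 11.41 in D2A1-m1, 12.11, 11.34 and 11.38 in D2A1-m2, against 11.88, 12.90 and 11.35 in D2A1. Its values followed the batch and D2A1 replicate 2, with changes of −0.09 ± 0.25 and −0.14 ± 0.23, and of 0.19 and 0.12 without that array. Another probe of Atf4, detected on all 8 arrays, gave 0.27 in D2A1-m1 and −0.03 in D2A1-m2. Without D2A1 replicate 2 that probe gave 0.56 (adjusted p = 0.0337 over all detected probes; limma) and 0.22, both under 1.5-fold. Atf4 is regulated largely in its translation, which the arrays do not measure.

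Ddit3, the pro-apoptotic factor downstream of Atf4, depended on that array. On the arrays it had 7.27 and 6.67 in D2A1-m1, 7.84, 6.82 and 7.01 in D2A1-m2, against 6.52, 8.44 and 5.58 in D2A1. D2A1 held both the highest and the lowest of the 8 values. The changes were 0.33 ± 0.48 in D2A1-m1 (adjusted p = 0.663) and 0.78 ± 0.45 in D2A1-m2 (adjusted p = 0.229), against 0.92 ± 0.14 (adjusted p = 0.00198) and 1.32 ± 0.13 (adjusted p = 0.000179; limma) without D2A1 replicate 2. Ddit3 was among the genes for which that array was picked, so the last 2 p-values are no independent support.

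Ern1, the sensor that splices Xbp1, was called in both sublines only without that array. It had 7.47 and 6.72 in D2A1-m1, 7.24, 6.86 and 6.65 in D2A1-m2, against 6.49, 7.31 and 5.99 in D2A1. With all arrays the changes were 0.62 ± 0.23 (adjusted p = 0.0788) and 0.56 ± 0.21 (adjusted p = 0.0746), and without D2A1 replicate 2 they were 0.86 (adjusted p = 0.00247) and 0.77 (adjusted p = 0.00214; limma). A probe of Atf6 detected on 2 arrays gave changes of 0.14 in D2A1-m1 and −0.30 in D2A1-m2. Another, detected on 6 arrays, gave 0.02 and −0.41, and neither probe passed.

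Atf3, a transcription factor induced by stress, set the sublines apart. Its log2 intensities were 4.73 and 4.92 in D2A1-m1, 6.42, 5.53 and 5.57 in D2A1-m2, against 5.19, 5.33 and 5.27 in D2A1. It was detected on no D2A1-m1 array, on all 3 D2A1-m2 arrays and on 1 of 3 D2A1 arrays, with no overlap between lines. D2A1-m2 was 0.67 ± 0.21 higher than D2A1 (adjusted p = 0.0388), and 0.66 without D2A1 replicate 2 (adjusted p = 0.0514; limma). D2A1-m2 replicate 1 carried much of the difference, which was 1.16 in batch 1 and 0.28 in batch 2, and the call was lost without that array, without D2A1-m2 replicate 3 and without any 1 of the D2A1 arrays.

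Between the sublines, Atf3 was the only gene called. D2A1-m1 was at least 1.52-fold lower than D2A1-m2, a bound because the probe was not above background in D2A1-m1, with a fitted change of −1.06 ± 0.22 (adjusted p = 0.0315; limma). This was 1 of 32 genes lower and none higher in D2A1-m1, where 2.27% of all genes were lower and 2% higher. The same array carried much of it: the difference was −1.69 in batch 1 and −0.63 in batch 2. At an unadjusted p under 0.05, 4 of 32 genes passed, against 20.7% of all genes.

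Of the 10 Atf4 targets, none passed in any of the 3 comparisons with all arrays. Their median change was −0.46 in D2A1-m1 and −0.15 in D2A1-m2 with all arrays, and −0.09 and 0.15 without D2A1 replicate 2, beside 0.0054 and −0.0035 for all genes with all arrays and 0.0056 and −0.0044 without it. The sign of the list's median in D2A1-m2 thus depended on that array. Leaving out D2A1 replicate 1 instead also changed calls: Asns, Ddit4 and Trib3 were then lower in D2A1-m1 than in D2A1. Ddit4 was then also lower in D2A1-m1 than in D2A1-m2. In that fit 15% and 4.65% of all genes were called in either direction.

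Chac1 had log2 intensities of 9.39 and 9.28 in D2A1-m1, 9.94, 9.97 and 10.05 in D2A1-m2, against 9.51, 11.20 and 9.57 in D2A1. The 2 sublines were each tight, with D2A1-m1 below every other array. Trib3 had 5.17 and 5.04 in D2A1-m1, neither of them detected by this probe, 5.87, 5.61 and 5.97 in D2A1-m2, against 5.55, 7.84 and 6.03 in D2A1. Here too D2A1-m1 was the lowest line. Their changes in D2A1-m1 against D2A1 were −0.71 ± 0.41 (adjusted p = 0.243) for Chac1 and −1.32 ± 0.52 (adjusted p = 0.0987; limma) for Trib3, and −0.20 and −0.69 without D2A1 replicate 2, when Trib3 passed. The values of Trib3 are those of the probe of largest interquartile range. Another of its probes, detected on all 8 arrays, gave −1.62 in D2A1-m1 with all arrays (adjusted p = 0.0813 over all detected probes) and −0.89 without D2A1 replicate 2 (adjusted p = 0.00201; limma).

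The wide spread that D2A1 replicate 2 gave these genes also bore on the sublines, which share the estimate of the spread. In D2A1-m1 against D2A1-m2, Chac1 differed by −0.70 ± 0.41 (adjusted p = 0.376) and Trib3 by −0.76 ± 0.52 (adjusted p = 0.45; limma) with all arrays. Without D2A1 replicate 2 the differences were −0.65 ± 0.11 (adjusted p = 0.0107) and −0.70 ± 0.17 (adjusted p = 0.037; limma). Then 3 of 32 genes were lower in D2A1-m1 (Atf3, Chac1 and Trib3), where 3.11% of all genes were, and none was higher, where 2.94% were. Chac1 and Trib3 were among the genes for which D2A1 replicate 2 was picked, so their p-values without it are no independent support.

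Asns had log2 intensities of 8.32 and 7.42 in D2A1-m1, 8.58, 7.92 and 7.59 in D2A1-m2, against 8.17, 9.62 and 7.80 in D2A1. Apart from D2A1 replicate 2, its values followed the batch more than the line, and the changes were −0.50 ± 0.34 (adjusted p = 0.322) and −0.19 ± 0.32 (adjusted p = 0.692; limma), and −0.11 and 0.16 without that array. Vldlr was detected on D2A1 replicate 2 alone, at 7.06, and lay between 4.28 and 4.57 on the other 7 arrays. Ddit4 changed by −0.79 ± 0.28 in D2A1-m1 (adjusted p = 0.0739; limma) and by −0.12 ± 0.26 in D2A1-m2, and by −0.51 and 0.13 without D2A1 replicate 2. The serine pathway genes Psat1, Phgdh and Shmt2 changed by 0.11, −0.24 and −0.41 in D2A1-m1 and by 0.15, −0.29 and −0.30 in D2A1-m2. Without D2A1 replicate 2, Psat1, Phgdh and Shmt2 changed by 0.25, −0.05 and −0.33 in D2A1-m1, and their changes in D2A1-m2 were 0.29, −0.13 and −0.22. Ppp1r15a changed by 0.16 in D2A1-m1 and by 0.36 in D2A1-m2, and by 0.25 and 0.44 without that array. Sesn2 was detected on 1 D2A1-m2 array alone, so no change is given.

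**Figure D4:**
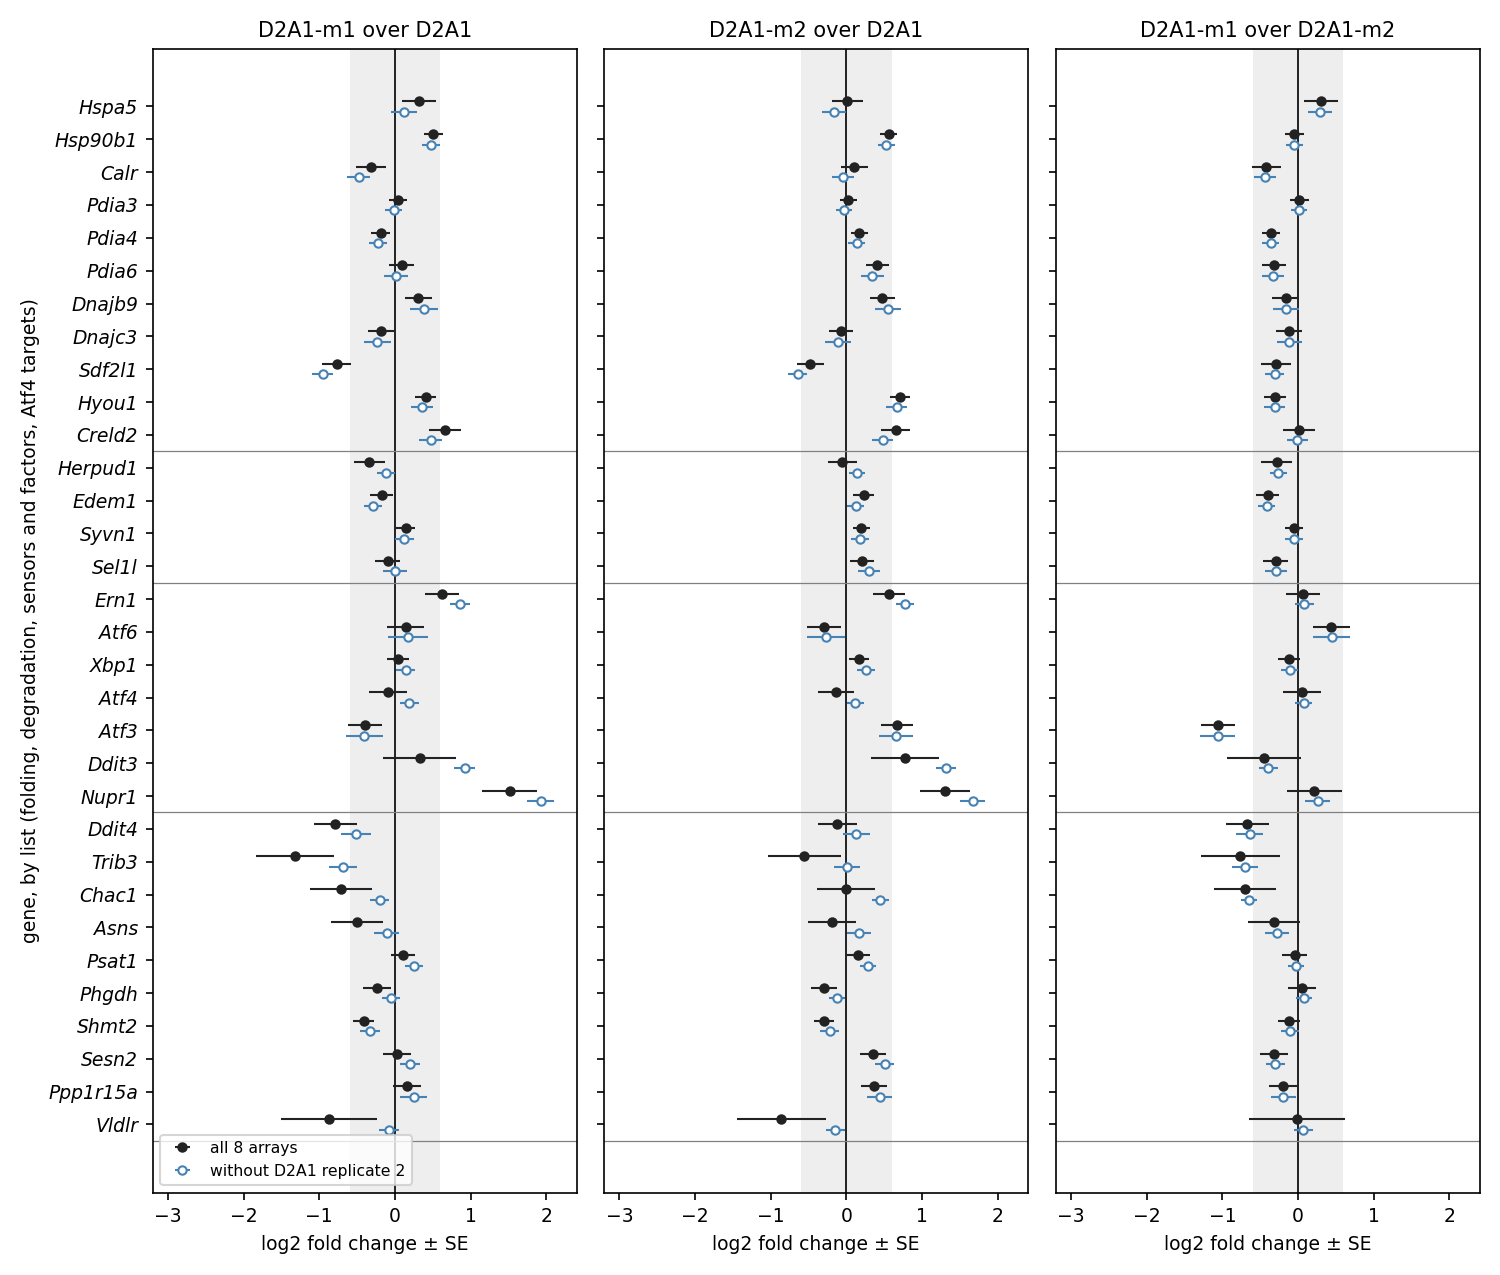
Log2 fold change ± SE of the 32 genes in 3 comparisons, with all 8 arrays (filled) and without D2A1 replicate 2 (open); the grey band marks changes under 1.5-fold, and points are measured values also where a line was not above background (Atf3, Atf6, Trib3, Sesn2 and Vldlr by the probes plotted). Ddit3 in D2A1-m2 is 1.32 without the array and 0.78 with it, and leaving it out shortens the error bars of Ddit3, Trib3, Chac1 and Vldlr.

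Genes of the wider machinery are given here by list. Of 18 other ER folding genes, 2 were higher and 1 was lower in D2A1-m1, where 7.72% and 6.84% of all genes were, and 4 were higher and 1 was lower in D2A1-m2, where 8.87% and 7.34% were. The thiol oxidoreductase Erp44 rose by 0.70 in D2A1-m1 and by 0.65 in D2A1-m2, the oxidase Ero1b rose by 0.68 in D2A1-m2, and the disulfide isomerase Pdia5 fell by 0.79 in D2A1-m1 and by 0.83 in D2A1-m2. Pdia5 was detected on 1 of 2 D2A1-m1 and 2 of 3 D2A1-m2 arrays. Its changes were −1.14 and −1.16 in batch 1, and −0.26 and −0.40 in batch 2. Erp44 was detected on 2 of 3 D2A1-m2 and 2 of 3 D2A1 arrays. Of 22 ER translocation genes, 2 were higher in D2A1-m1 (Ssr1 by 0.87 and Srpr by 0.66) and none passed in D2A1-m2, while 19 of 22 had a positive change in D2A1-m1 (median 0.18) and 16 of 22 in D2A1-m2 (median 0.25). The medians of all genes were 0.0054 and −0.0035. Of 14 other degradation genes, the ubiquitin-conjugating enzyme Ube2j1 rose by 0.82 in D2A1-m2, and none passed in D2A1-m1. Cytosolic heat shock genes (12 measured) had 1 higher and 1 lower in D2A1-m1, and none higher and 1 lower in D2A1-m2. Other stress-induced genes (13 measured) had 1 higher and 1 lower in D2A1-m1, and 1 higher and 2 lower in D2A1-m2. The genes named here were also called in the same direction without D2A1 replicate 2, with changes of 0.63 to 0.90 for those that rose and of −0.68 and −0.73 for Pdia5.

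On the side of translation, Eif2b5, the catalytic subunit of the exchange factor that eIF2 phosphorylation inhibits, was the only gene of 11 in the eIF2 group to pass. Among all genes 6.84% were lower in D2A1-m1, 7.34% in D2A1-m2, and 2.27% in D2A1-m1 against D2A1-m2. It was lower in D2A1-m1 by 1.39 ± 0.13 (adjusted p = 0.000124) and in D2A1-m2 by 0.77 ± 0.12 (adjusted p = 0.00196), and lower in D2A1-m1 than in D2A1-m2 by 0.61 ± 0.13 (adjusted p = 0.0315; limma). Its changes without D2A1 replicate 2 were the same to 2 decimals, and Eif2ak2, the kinase that senses double-stranded RNA, was then also called, lower in D2A1-m2 than in either other line.

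Of 19 aminoacyl-tRNA synthetases, Tars was higher and Gars lower in both sublines, and Sars, Farsb and Eprs were lower in D2A1-m1 alone. For this list and those that follow, 7.72% of all genes were called higher and 6.84% lower for D2A1-m1 against D2A1. The shares for D2A1-m2 against D2A1 were 8.87% higher and 7.34% lower. Without D2A1 replicate 2 the shares were 8.74% and 7.62% for D2A1-m1, then 9.93% and 8.18% for D2A1-m2. Gars fell by 1.94 in D2A1-m1 and by 1.303 in D2A1-m2, and by 1.93 and 1.29 without D2A1 replicate 2. Sars moved with that array: it fell by 1.21 in D2A1-m1 with all arrays (adjusted p = 0.0434) and by 0.77 without D2A1 replicate 2 (adjusted p = 0.00576; limma). Among 9 other stress factors and proteases, Creb3l2 rose by 0.78 and Cebpb, a C/EBP factor, fell by 0.69 in D2A1-m2, and Creb3, Atf5 and Jdp2 were called higher there only without D2A1 replicate 2. Of 11 mitochondrial chaperones and proteases, Trap1, the mitochondrial Hsp90, fell by 1.05 in D2A1-m1 and by 1.17 in D2A1-m2, and list medians were −0.23 and −0.22, with 2 and 3 positive changes. Of 11 amino acid synthesis and one-carbon genes 1 had a positive change in D2A1-m1 (median −0.41) and 5 in D2A1-m2 (median −0.11). Bcat1 fell by 0.59 in D2A1-m1 and Shmt1 by 0.85 in D2A1-m2, whereas without D2A1 replicate 2 Shmt1 was called lower in both sublines and Bcat1 in neither. Aldh1l2, one of the genes highest on that array, was then called higher in D2A1-m2, by 1.18. Aldh1l2, Cth and Bcat1 were then also called lower in D2A1-m1 than in D2A1-m2, where 3.11% of all genes were. Of 7 amino acid transporters none passed with all arrays, while Slc1a4 and Slc6a9 were called higher in D2A1-m2 without D2A1 replicate 2.

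Probes of the same gene were compared where several were detected. Over 12 genes with 27 detected probes, probes of a gene differed in the call for 2 pairs of gene and comparison: Dnajb9 in D2A1-m2, and Creld2 in D2A1-m1, where adjusted p-values over all detected probes were 0.0509 and 0.0344 (limma).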

How the data were processed

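RNA of independent cultures was labelled and hybridised to 8 one-colour Illumina MouseWG-6 v2.0 BeadChips in 2 batches. The deposited intensities are mean bead signals per probe, neither background-subtracted nor normalised, and the deposited detection p-values compare each probe with negative control beads of its array. The authors also deposited processed values on a scale close to log2, made with lumi (version not given in the sources used here) by variance stabilisation, robust spline normalisation and ComBat, and tested pairs of lines with t-tests; their exact scale is not stated, and they served as an alternative. No column of values was without a sample.

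Intensities were background-corrected from the detection p-values (normexp, offset 16), quantile normalised and log2 transformed with neqc in limma 3.58.1 (R 4.3.3). Probes with a detection p of 0.01 or lower on at least 1 array were kept, and the probe of largest interquartile range stood for each gene, as in the methods of the study. The 3 lines were fitted together over 8 arrays with batch as a term, and p-values were adjusted by Benjamini-Hochberg over 9017 genes. A gene not detected on any array of a line has only a bound there, formed from the lowest signal among detected probes. Probe names came from the platform's annotation: 34885 probes named 1 gene, 18 several and 10378 none.

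Values on every array are given for members called in a comparison and for Hspa5, Xbp1, Atf4, Ddit3, Asns and Chac1; of the further lists, at most 3 called genes in each direction and comparison were named. Trib3, Vldlr, Ern1, Hsp90b1, the comparison of D2A1 replicates 2 and 1, the genes named for it or for fits without that array, and the motifs were chosen after values were seen. Members and lists were chosen with earlier results of these data known. The alternatives covered background correction, offset, detection filter, probe choice, batch, replicate block, test, threshold and each array left out.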

Additional observations from a re-analysis of the deposited data

How the results depend on the processing

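Of 96 pairs of gene and comparison, 74 kept their side of the thresholds under all 20 alternatives and none changed direction while called, but each of the 8 calls was lost under at least 1. Hyou1 in D2A1-m2 was kept in 15, Nupr1 in D2A1-m1 in 12, Nupr1 in D2A1-m2 and Sdf2l1 in D2A1-m1 in 11 each, Creld2 in D2A1-m2 in 9, Atf3 between the sublines in 7, Creld2 in D2A1-m1 in 5 and Atf3 in D2A1-m2 in 4. The number of genes called in D2A1-m1 against D2A1 was 3, and became 1 with the authors' processed values, 0 without the detection filter, 0 in batch 1 alone, 6 in batch 2 alone, 0 by the methods' t-test at their limit and 0 after Benjamini-Hochberg, and 0 at the study's limit with limma. In D2A1-m2 against D2A1 it was 4, and became 2 when background was left uncorrected, 2 at an offset of 50, 1 with the authors' values, 1 without the detection filter, 0 in batch 1 alone, 6 in batch 2 alone, 0 by the methods' t-test at their limit and 1 (Hyou1) after Benjamini-Hochberg, and 1 at the study's limit. In D2A1-m1 against D2A1-m2 it was 1, and became 0 with the authors' values, without the detection filter, without the batch term, in batch 1 alone and by either form of the methods' t-test, and 2 in batch 2 alone. Leaving out each array in turn gave 0 to 6 calls in D2A1-m1 (0 without D2A1-m1 replicate 1, D2A1-m1 replicate 2 or D2A1 replicate 3, and 6 without D2A1 replicate 1), 1 to 5 in D2A1-m2 (1 without D2A1-m2 replicate 1, D2A1-m2 replicate 3 or D2A1 replicate 3) and 0 to 3 between the sublines (0 without any one subline array). Pairs of gene and comparison in which probes differed in the call numbered 2, and became 1 when background was left uncorrected, 1 at an offset of 50, 1 without the batch term, 0 with the authors' values, 0 at the study's limit, 0 in batch 1 alone and 5 in batch 2 alone, and 0 to 5 with an array left out. Over all genes the calls fell too: of 1313 in D2A1-m1, 359 were called with the authors' values and 168 in batch 1 alone, and of 1462 in D2A1-m2, 330 and 122. The cause was not tested. Whether replicate numbers pair the arrays cannot be told, because the correlated deviations still held the batch. Same-numbered arrays of different lines deviated together with r of −0.30 to 0.71 over genes, and the negative values came from arrays of different batches. Within a batch, r was 0.33 to 0.71 for same-numbered arrays of different lines and 0.29 to 0.67 for the others. A replicate block used instead of batch gave 4 calls in D2A1-m1, 4 in D2A1-m2 and 0 between the sublines, and probes differed in 1 pair. D2A1-m1 has 2 arrays, which limits precision, and signal near background limits Atf3, Vldlr and Sesn2, and the probes chosen for Atf6 and Trib3. Such signal also limits Hyou1 in D2A1, and Pdia5 and Erp44 among the further genes.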
